A study of Rattus norvegicus with 23 samples.

Results

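The genes of 5 enzymes that make or break down proline were followed in rat kidney cells at normal and acidic extracellular pH. They are Pycr1 (ENSRNOG00000036682, chromosome 10), Aldh18a1 (ENSRNOG00000067262, chromosome 1), Oat (ENSRNOG00000016807, chromosome 1), Prodh (ENSRNOG00000000281, chromosome 11) and Aldh4a1 (ENSRNOG00000061876, chromosome 5), out of 30452 genes in the count table and 14777 genes that held enough counts to be tested. The genes were chosen by their place in the proline pathway, in view of their measured levels in these same samples, so their own changes are given as a description without a test. Of the 5 genes, 4 were found under their own symbol and Prodh was found under Prodh1, its synonym in RefSeq, and all 5 passed the filter on low counts.

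Epithelial NRK-52E cells and fibroblast NRK-49F cells are permanent lines from rat kidney. Both were kept for 24 h in medium without serum and then incubated for 48 h at pH 7.4 (control) or at pH 6.0, which was set with HCl. The data comprise n = 6 samples of NRK-52E cells at each pH, n = 6 samples of NRK-49F cells at pH 7.4 and n = 5 at pH 6.0, and address how an acidic medium alters the transcriptome of non-tumour cells. The study calls its samples biological but, like the labels, does not say whether those of a condition came from separate cultures, so the errors describe the spread between these samples. The labels divide NRK-52E samples into sample groups 1 and 3 and NRK-49F samples into sample groups 4 and 6, each with both pH values. What a sample group is was not named, so results are also given within each of them, as a possible batch.

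Proline is made in mitochondria from glutamate or ornithine. The product of Aldh18a1, delta-1-pyrroline-5-carboxylate synthase (P5CS), reduces glutamate, and the product of Oat, ornithine aminotransferase, converts ornithine, and both routes meet in pyrroline-5-carboxylate (P5C), which the reductase encoded by Pycr1 turns into proline. For breakdown, the proline dehydrogenase encoded by Prodh oxidises proline back to P5C and the dehydrogenase encoded by Aldh4a1 converts P5C to glutamate. In the kidney, the proximal tubule takes up filtered proline, and fibroblasts use much proline for collagen, which is rich in proline and hydroxyproline.

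Promoter sequences are shown because the genes of the pathway did not move as a block, and because Pycr1 is known as a target of the transcription factor ATF4. RefSeq promoters of the build GRCr8 were at hand for Pycr1, Oat and Aldh4a1, that is for 3 of the 5 genes. The 250 bases before each start are printed 5′ to 3′ on the strand of the gene. Capitals mark the 8 letters TGATGCAA, a form of the C/EBP-ATF response element, and the letters CCAAT, known from binding sites of NF-Y, each searched on both strands. The windows are chr10:106420813-106421062 on the minus strand for Pycr1, chr1:196797755-196798004 on the minus strand for Oat and chr5:157162939-157163188 on the plus strand for Aldh4a1.
Pycr1: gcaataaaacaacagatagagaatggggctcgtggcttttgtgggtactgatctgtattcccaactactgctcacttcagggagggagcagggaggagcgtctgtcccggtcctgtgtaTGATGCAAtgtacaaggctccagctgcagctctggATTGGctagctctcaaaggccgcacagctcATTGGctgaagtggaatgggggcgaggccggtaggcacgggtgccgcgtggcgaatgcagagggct
Oat: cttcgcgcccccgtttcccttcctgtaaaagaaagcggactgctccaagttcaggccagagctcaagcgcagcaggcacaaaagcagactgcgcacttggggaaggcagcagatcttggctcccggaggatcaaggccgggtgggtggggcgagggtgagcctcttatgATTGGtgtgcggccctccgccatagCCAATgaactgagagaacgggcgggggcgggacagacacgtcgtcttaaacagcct
Aldh4a1: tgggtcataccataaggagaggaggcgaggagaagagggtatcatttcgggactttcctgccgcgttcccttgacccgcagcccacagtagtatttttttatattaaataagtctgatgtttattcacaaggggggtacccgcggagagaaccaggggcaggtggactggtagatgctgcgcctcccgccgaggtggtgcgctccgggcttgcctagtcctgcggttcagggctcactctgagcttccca
The window of Pycr1 held TGATGCAA from base 131 to base 124 before the start, and ATTGG, which is CCAAT on the other strand, from 96 to 92 and from 66 to 62. That of Oat held ATTGG from 81 to 77 and CCAAT from 56 to 52 before the start, and that of Aldh4a1 held neither. Of 33469 rat promoters of the same 300 bases (250 before and 50 after the start), 266 or 0.795% held TGATGCAA on either strand, and 37.5% held CCAAT. The looser spelling TGATGNAA, which includes TGATGCAA, was held by 3.98% and the E-box CACGTG by 6.42%. Among the other genes of the pathway that were tested, 57 of 72 had a promoter entry and Got1 was the 1 gene with TGATGCAA. These matches describe letters and are not measured binding sites.

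Total counts per sample ranged from 16412564 to 34250535. Levels are given as FPM, that is counts scaled to library size with the TMM factors of edgeR (trimmed mean of M values). FPM are not divided by transcript length, so levels of different genes cannot be set against each other, whereas the same gene can be compared across samples. All samples entered a single model, and each log2 fold change sets pH 6.0 against pH 7.4 and carries its standard error (SE). The line called epithelial had little of some defining epithelial transcripts. Cdh1 was at most 0.349 FPM in NRK-52E cells, and Epcam, Krt18 and Cldn4 were at or near 0 in both lines. The tight junction gene Tjp3 (11.1 to 26.3 FPM in NRK-52E and 0.612 to 2.23 FPM in NRK-49F cells) and the fibroblast genes Pdgfra (medians of 0.392 and 319 FPM) and Col1a1 (29.4 and 4856 FPM) separated the lines as labelled. Krt8 and Col3a1 did the opposite, with medians of 350 and 3878 FPM in the epithelial line against 696 and 1108 FPM in the fibroblasts, and Thy1 and Fap were near 0 in both. The summed level of the 10 fibroblast markers was lower at pH 6.0 than at pH 7.4 in both lines, 2168 to 3544 against 5705 to 8914 FPM in NRK-52E and 13922 to 15268 against 19013 to 21109 FPM in NRK-49F cells. The part of this in the results on the proline genes was not tested. The 6 epithelial markers found of 8 summed to 216 to 275 FPM at pH 6.0 against 462 to 665 FPM at pH 7.4 in NRK-52E cells, and to 439 to 697 against 669 to 1209 FPM in NRK-49F cells.

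In NRK-52E cells, the genes of all 3 enzymes that lead to proline were higher at pH 6.0, by far the most Pycr1, while Prodh, the first gene of breakdown, was lower. In NRK-49F cells, Pycr1 was higher by a smaller amount, Aldh18a1, Prodh and Aldh4a1 were lower, and Oat overlapped between the pH values. Counted by the model's threshold (adjusted p under 0.05 by the quasi-likelihood test of edgeR), 4 of the 5 genes passed in NRK-52E cells, 3 of them higher and 1 lower, where 61.2% of all tested genes passed, 24.7% higher and 36.6% lower. In NRK-49F cells 4 of the 5 passed, 1 higher and 3 lower, where 28.9% of all tested genes passed, 14.5% higher and 14.4% lower. FPM did not overlap between the pH values for 4 of the 5 genes in each line, against 38.6% of all tested genes in NRK-52E and 20.6% in NRK-49F cells. These counts describe genes chosen with their values known, and nothing is read from them.

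**Figure D1:**
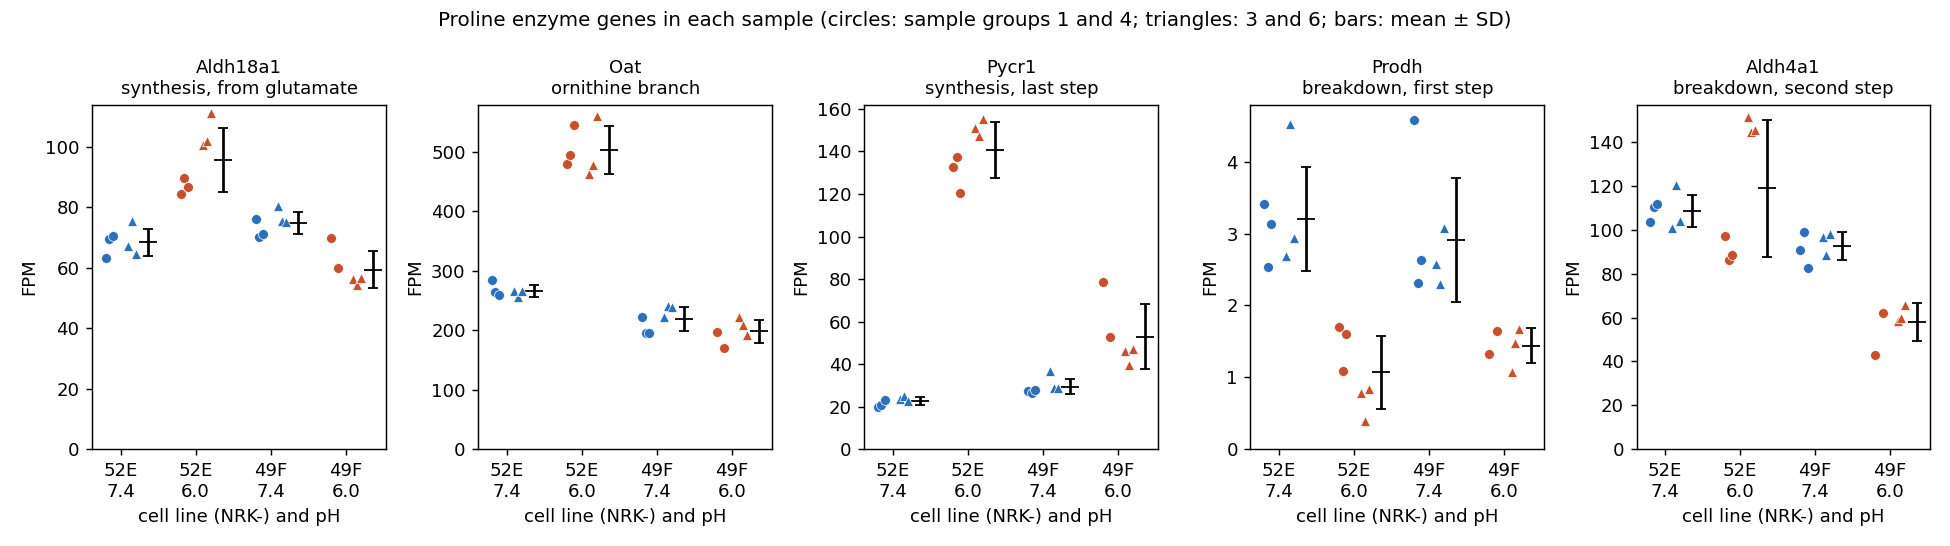
FPM of the 5 genes in each sample (vertical axes, each gene on its own scale from 0) by cell line and pH (horizontal axes), with pH 7.4 in blue and pH 6.0 in red, circles for sample groups 1 and 4, triangles for sample groups 3 and 6, and black marks for the mean ± SD. Pycr1 at pH 6.0 sits at 120 to 155 FPM in NRK-52E cells and at 39.5 to 78.7 FPM in NRK-49F cells, and Aldh4a1 in NRK-52E cells at pH 6.0 splits by sample group.

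Pycr1 encodes the mitochondrial reductase of the last step of synthesis. In NRK-52E cells its lowest, median and highest levels were 19.8, 22.9 and 25.2 FPM at pH 7.4, and 120, 142 and 155 FPM at pH 6.0. All 6 acidic samples were far above all 6 controls, and the means were 22.6 ± 1.96 and 141 ± 13.0 FPM (SD, n = 6 each). This is a log2 fold change of 2.64 ± 0.13 (SE) or 6.23-fold, and 159 of the 14777 tested genes had a larger one.

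In NRK-49F controls, the lowest, median and highest levels of Pycr1 were 26.5, 28.4 and 36.6 FPM. At pH 6.0 the 5 samples were at 78.7 (A042), 52.9 (A043), 46.0 (A054), 39.5 (A055) and 47.3 FPM (A056). No acidic sample reached down to the controls, though A055 lay close to A051, the highest control. The means were 29.4 ± 3.64 (n = 6) and 52.9 ± 15.2 FPM (SD, n = 5), a log2 fold change of 0.85 ± 0.13 (SE) or 1.80-fold, which 870 tested genes exceeded. The 2 highest acidic samples, A042 and A043, were those of sample group 4. Within sample group 4 the log2 fold change was 1.27 ± 0.19 and within sample group 6 it was 0.48 ± 0.13 (SE), and without A042 it was 0.66 over all samples. In NRK-52E cells the value was 2.69 ± 0.092 in sample group 1 and 2.74 ± 0.099 in sample group 3. Over the 4 conditions, Pycr1 was ordered NRK-52E at pH 6.0, NRK-49F at pH 6.0, NRK-49F at pH 7.4 and NRK-52E at pH 7.4, and no neighbours in this order overlapped.

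Aldh18a1 encodes P5CS, which commits glutamate to proline and ornithine. In NRK-52E cells its lowest, median and highest levels were 63.1, 68.4 and 75.6 FPM at pH 7.4 and 84.3, 95.1 and 111 FPM at pH 6.0, without overlap. The means of 68.4 ± 4.51 and 95.7 ± 10.5 FPM (SD, n = 6 each) gave a log2 fold change of 0.48 ± 0.076 (SE). It was 0.44 ± 0.075 in sample group 1 and 0.68 ± 0.10 in sample group 3.

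In NRK-49F cells, Aldh18a1 went the other way. At pH 7.4 the lowest, median and highest levels were 70.1, 75.3 and 80.5 FPM, and at pH 6.0 the samples were at 70.0 (A042), 59.9 (A043), 56.3 (A054), 54.2 (A055) and 56.7 FPM (A056). The groups did not overlap, but A042 and the lowest control were almost level. The means were 74.8 ± 3.71 (n = 6) and 59.4 ± 6.23 FPM (SD, n = 5), a log2 fold change of -0.33 ± 0.080 (SE). Within sample group 4, with 2 acidic samples, it was -0.16 ± 0.14 and within sample group 6 -0.48 ± 0.086. In the order of the conditions, NRK-52E at pH 6.0 stood above the rest, both controls overlapped, and NRK-49F at pH 6.0 was lowest and overlapped the controls of NRK-52E.

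Oat feeds ornithine carbon into P5C, a reversible step of mitochondria. In NRK-52E cells its lowest, median and highest levels were 255, 265 and 285 FPM at pH 7.4 and 463, 486 and 559 FPM at pH 6.0. Every acidic sample was above every control, with means of 266 ± 10.1 and 503 ± 39.7 FPM (SD, n = 6 each). The log2 fold change was 0.92 ± 0.075 (SE), with 0.99 ± 0.079 in sample group 1 and 1.01 ± 0.11 in sample group 3.

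In the fibroblasts, Oat had its lowest, median and highest level at 195, 223 and 240 FPM at pH 7.4. At pH 6.0 they were 198 (A042), 170 (A043), 222 (A054), 209 (A055) and 191 FPM (A056), within or below the range of the controls. The means of 219 ± 20.2 (n = 6) and 198 ± 19.5 FPM (SD, n = 5) gave a log2 fold change of -0.15 ± 0.078 (SE), with -0.15 ± 0.14 in sample group 4 and -0.19 ± 0.094 in sample group 6. Oat was highest in NRK-52E cells at pH 6.0, followed without overlap by NRK-52E cells at pH 7.4 and then by both conditions of NRK-49F cells, which overlapped.

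Prodh encodes the dehydrogenase at the entry of proline breakdown, and it had few counts, 7 to 131 per sample, so that counting error alone is large. In NRK-52E cells its lowest, median and highest levels were 2.53, 3.04 and 4.53 FPM at pH 7.4 and 0.386, 0.965 and 1.70 FPM at pH 6.0. The groups did not overlap, and the means were 3.20 ± 0.720 and 1.07 ± 0.506 FPM (SD, n = 6 at either pH), which is a log2 fold change of -1.56 ± 0.26 (SE). The lowest sample, A037, rested on 7 counts. Within sample group 1 the change was -0.96 ± 0.25 and within sample group 3 it was -2.23 ± 0.36, since acidic samples averaged 1.46 FPM in sample group 1 and 0.670 FPM in sample group 3.

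Fibroblast controls had lowest, median and highest Prodh levels of 2.30, 2.61 and 4.58 FPM. At pH 6.0 they were 1.32 (A042), 1.65 (A043), 1.08 (A054), 1.48 (A055) and 1.67 FPM (A056), below all controls. The means of 2.91 ± 0.866 (n = 6) and 1.44 ± 0.246 FPM (SD, n = 5) gave a log2 fold change of -1.03 ± 0.27 (SE). It was -1.11 ± 0.41 in sample group 4 and -0.93 ± 0.29 in sample group 6, and -0.84 over all samples without A039, the highest control. Both controls overlapped, as did both acidic conditions.

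Aldh4a1 encodes the dehydrogenase that takes P5C to glutamate, the step shared by the breakdown of proline and of ornithine. In NRK-52E cells its lowest, median and highest levels were 101, 107 and 121 FPM at pH 7.4 and 86.2, 121 and 152 FPM at pH 6.0. The acidic samples lay on both sides of the controls. The means were 109 ± 7.22 and 119 ± 31.3 FPM (SD, n = 6 each) and the log2 fold change was 0.13 ± 0.13 (SE). The sample groups differed. In sample group 1 the mean was 109 FPM at pH 7.4 and 90.7 FPM at pH 6.0 (log2 fold change -0.18 ± 0.077), and in sample group 3 it was 109 and 147 FPM (0.52 ± 0.10). The acidic samples of sample group 1 were at 97.5, 86.2 and 88.5 FPM and those of sample group 3 at 152, 145 and 145 FPM, whereas the controls of both sample groups overlapped. The value over all NRK-52E samples is therefore a mean of opposite values.

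The fibroblast line had lowest, median and highest Aldh4a1 levels of 82.8, 93.8 and 99.2 FPM at pH 7.4. At pH 6.0 they were 43.1 (A042), 62.2 (A043), 58.6 (A054), 59.6 (A055) and 66.0 FPM (A056), all below the controls. The means of 92.7 ± 6.44 (n = 6) and 57.9 ± 8.75 FPM (SD, n = 5) gave a log2 fold change of -0.68 ± 0.14 (SE), with -0.79 ± 0.20 in sample group 4 and -0.63 ± 0.096 in sample group 6. A042 was at once the highest acidic sample for Pycr1 and Aldh18a1 and the lowest for Aldh4a1 in this line.

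The change at pH 6.0 was compared between the lines as a difference of log2 fold changes, NRK-52E minus NRK-49F. It was 1.79 ± 0.18 for Pycr1, 1.07 ± 0.11 for Oat, 0.82 ± 0.11 for Aldh18a1, 0.81 ± 0.19 for Aldh4a1 and -0.53 ± 0.38 (SE) for Prodh. Of the 5 genes, 4 passed the threshold and all 4 were more positive in NRK-52E cells, where 41.4% of all tested genes passed, 16.8% more positive and 24.7% more negative. At pH 7.4, the lines differed less. The log2 ratio of NRK-52E to NRK-49F cells was -0.38 ± 0.12 for Pycr1, -0.13 ± 0.076 for Aldh18a1, 0.28 ± 0.075 for Oat, 0.13 ± 0.25 for Prodh and 0.23 ± 0.13 (SE) for Aldh4a1.

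The median log2 fold change of all tested genes was -0.12 in NRK-52E and 0.00 in NRK-49F cells. With each line filtered, scaled and fitted alone, the median was 0.00 in NRK-52E cells and the values there were 2.73 for Pycr1, 0.57 for Aldh18a1, 1.01 for Oat, -1.47 for Prodh and 0.22 for Aldh4a1. No direction of the 5 genes turned in either line with another scaling (RLE, upper quartile or each line alone).

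**Figure D2:**
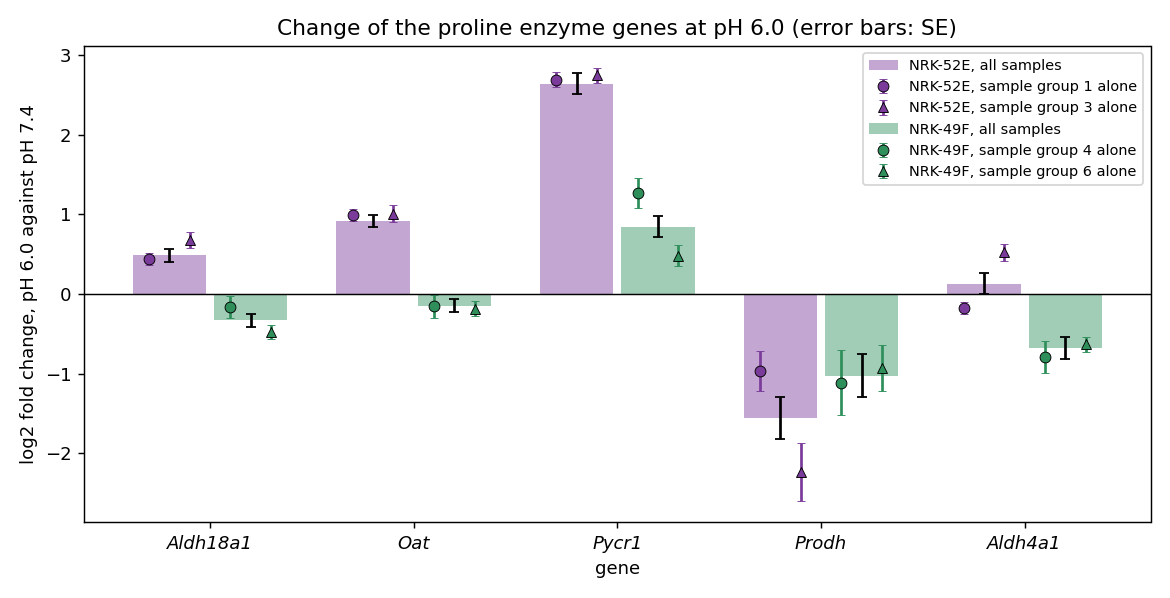
Log2 fold change of the 5 genes at pH 6.0 against pH 7.4 (vertical axis) by gene (horizontal axis). Bars with SE are the fit over all samples (purple for NRK-52E, green for NRK-49F), and circles and triangles with SE are single sample groups (1 and 3 of NRK-52E, 4 and 6 of NRK-49F). The sample groups lie on opposite sides of 0 for Aldh4a1 in NRK-52E cells, at -0.18 and 0.52.

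Within a sample, ratios of counts do not depend on the library scaling. Transcript lengths were not at hand, so these are ratios of counts and not of molecules, and since reads mapping to several places were counted, Pycr1 may share reads with its paralogs. The balance of the last step of synthesis over the first step of breakdown was followed by the ratio of Pycr1 to Prodh counts. It was 7.26 ± 1.32 and 173 ± 114 in control and acidic NRK-52E cells (SD, n = 6 for both), and 10.7 ± 2.83 (n = 6) and 37.9 ± 13.6 (SD, n = 5) in NRK-49F cells. The groups were apart in both lines. The wide range at pH 6.0 in NRK-52E cells, 75.2 to 381, goes with Prodh counts of 7 to 55. The ratio of Pycr1 to Aldh18a1, both on the route from glutamate, was steadier, with 0.330 ± 0.0205 and 1.47 ± 0.0753 in the epithelial line and 0.392 ± 0.0326 and 0.877 ± 0.150 in NRK-49F cells at pH 7.4 and pH 6.0.

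**Figure D3:**
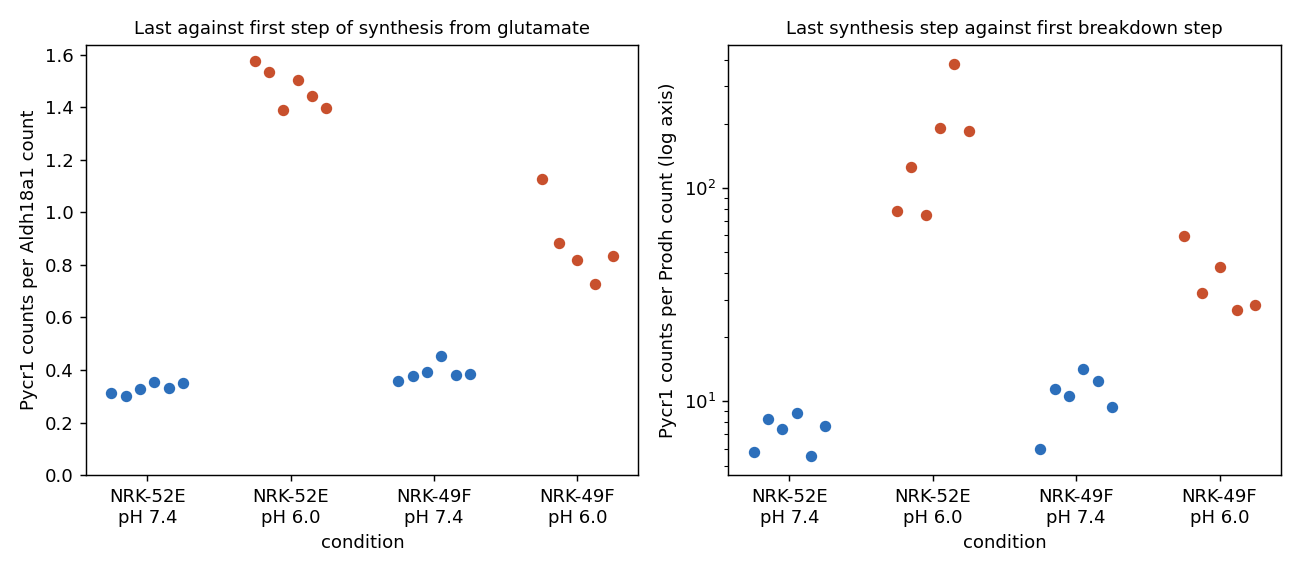
Pycr1 counts per Aldh18a1 count on a linear axis (left) and per Prodh count on a log axis (right) in each sample by condition (horizontal axes), with pH 7.4 in blue and pH 6.0 in red. In NRK-52E cells the left ratio is 1.39 to 1.57 at pH 6.0 against 0.300 to 0.354 at pH 7.4, and the right ratio reaches 75.2 to 381.

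Pycr3, a cytosolic paralog of Pycr1, did not pass the test in either line. It was at 348 ± 89.0 and 305 ± 39.4 FPM at pH 7.4 and pH 6.0 in epithelial samples (SD, n = 6 per pH), a log2 fold change of -0.19 ± 0.17 (adjusted p = 0.339, edgeR's quasi-likelihood test), and its value in the fibroblasts was -0.05 ± 0.18 (adjusted p = 0.881, edgeR's quasi-likelihood test). A035, a control of NRK-52E cells, stood apart with 525 FPM where the other controls had at most 337 FPM, and without A035 the epithelial value was -0.04 (adjusted p = 0.859, edgeR's quasi-likelihood test). Prodh2, the hydroxyproline dehydrogenase, averaged 0.0207 FPM and was not tested. Nadk2, named after its values were seen, is the mitochondrial NAD kinase that supplies the cofactor for P5CS. In the epithelial line it fell from 14.2 ± 0.592 to 8.15 ± 0.946 FPM (SD, n = 6 for both, log2 fold change -0.80 ± 0.10, adjusted p = 4.3e-07, edgeR's quasi-likelihood test), while Aldh18a1 was higher there. In NRK-49F cells it was 12.2 ± 0.831 (n = 6) and 14.9 ± 2.25 FPM (SD, n = 5), a log2 fold change of 0.29 ± 0.11 (adjusted p = 0.0424, edgeR's quasi-likelihood test), which no longer passed without A039, A040, A042, A051, A053, A054, A055 or A056. The difference between the lines passed, at -1.09 ± 0.15 (adjusted p = 2.9e-06, edgeR's quasi-likelihood test).

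A list of 82 other genes around these enzymes was followed in the same model, of which 81 were found in the table and 72 were tested. In NRK-52E cells 29 rose and 27 fell at pH 6.0, where 24.7% and 36.6% of all tested genes did, and the median log2 fold change of -0.02 stood beside -0.12 for all tested genes. In NRK-49F cells 13 rose and 11 fell, where 14.5% and 14.4% of all tested genes did, with a median of 0.10 beside 0.00. For the difference between the lines, 20 were more positive and 19 more negative in NRK-52E cells, against 16.8% and 24.7% of all tested genes. The numbers of NRK-49F cells moved with single samples, and so did those of all tested genes. The number that rose was 8 without A042, 7 without A054 and 8 without A055. Of all tested genes, 1806, 1865 and 1884 rose in these fits, against 2143 with all samples. The number that fell was 7 without A039 or without A041, where 1855 and 1981 of all tested genes fell, against 2127. Within sample group 4 alone 3 rose and 4 fell, where 653 and 548 of 13812 tested genes did. Within sample group 6 alone 8 rose, where 1088 of 13812 did, and with the line fitted alone 17 fell, where 2301 of 13659 did. Shares in parentheses beside the groups of genes are those of all tested genes that rose and fell.

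**Figure D4:**
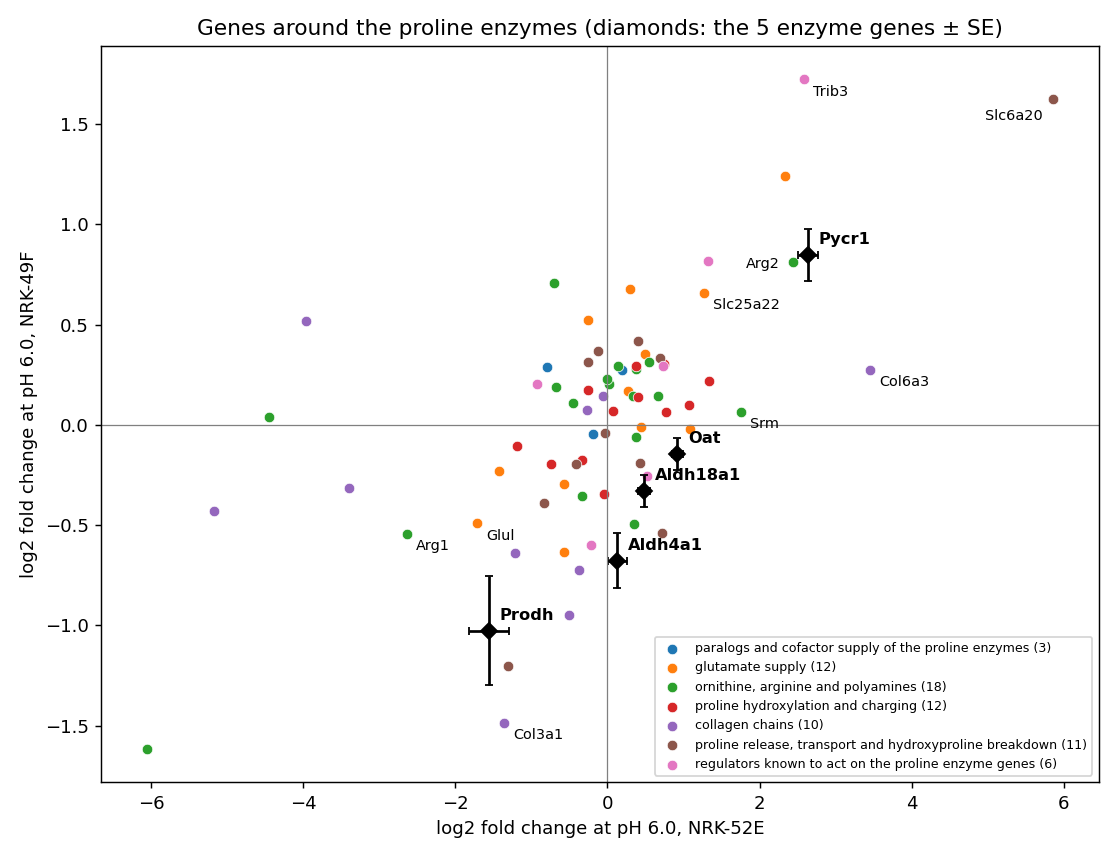
Log2 fold change at pH 6.0 in NRK-52E cells (horizontal axis) against that in NRK-49F cells (vertical axis) for the 72 tested genes around the proline enzymes (dots, coloured by role, number of genes in the key) and for the 5 enzyme genes (black diamonds with SE). The axes have different ranges. Pycr1 lies at 2.64 and 0.85 and Prodh at -1.56 and -1.03, and the dots spread into all quadrants.

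All 12 tested genes that make, use or carry glutamate or glutamine passed in NRK-52E cells, 7 higher and 5 lower. Of all tested genes 61.2% passed there. In NRK-49F cells 4 of the 12 were higher and 2 lower, where 28.9% of all tested genes passed. In NRK-52E cells 6 were higher without A026, and 4 were lower without A035, A036, A037 or A038. With the line fitted alone 6 were higher and 4 lower, where 4077 and 4258 of 13377 tested genes were. Slc1a5, which carries glutamine into the cell, rose from 58.8 to 125 FPM in NRK-52E cells (log2 fold change 1.09 ± 0.092, adjusted p = 5.5e-10, edgeR's quasi-likelihood test) and was 99.7 and 98.2 FPM in NRK-49F cells. Slc25a22, the mitochondrial glutamate carrier, rose in both lines, from 78.4 to 190 FPM in NRK-52E cells and from 76.9 to 121 FPM in NRK-49F cells. Glul, which makes glutamine from glutamate, fell from 396 to 121 FPM in NRK-52E cells (log2 fold change -1.71 ± 0.18, adjusted p = 1.9e-08, edgeR's quasi-likelihood test). Slc25a13, the aspartate-glutamate carrier, fell from 19.6 to 7.26 FPM there.

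Of 18 genes of ornithine, arginine and polyamines, which share the substrate of Oat, 7 rose and 7 fell in NRK-52E cells (24.7% and 36.6% of all tested genes), and 2 rose and 3 fell in NRK-49F cells (14.5% and 14.4%). Both arginases, which make ornithine from arginine, went opposite ways in NRK-52E cells. The cytosolic Arg1 fell from 313 to 50.3 FPM (log2 fold change -2.63 ± 0.19, adjusted p = 4.3e-11, edgeR's quasi-likelihood test) and the mitochondrial Arg2 rose from 1.89 to 10.2 FPM (2.44 ± 0.29, adjusted p = 1.5e-07, edgeR's quasi-likelihood test). Srm, the spermidine synthase, rose from 31.9 to 107 FPM in NRK-52E cells and was 57.3 and 59.9 FPM in NRK-49F cells. Smox, the spermine oxidase, fell in NRK-52E cells (log2 fold change -0.70 ± 0.11) and rose in NRK-49F cells (0.71 ± 0.11), and the difference passed at -1.41. Within sample group 4 of NRK-49F cells alone, Smox was at 0.42 and did not pass. Among the fibroblast samples, the calls of Glul (-0.49), Arg1 (-0.54) and Arg2 (0.81) were close to the threshold, and they were lost on leaving out any of 17, 7 and 8 single samples of the data set.

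Of 12 genes that hydroxylate proline in collagen or load it on tRNA, 6 rose and 2 fell in NRK-52E cells (24.7% and 36.6% of all tested genes), and 2 rose and 1 fell in NRK-49F cells (14.5% and 14.4%). P4ha1, a catalytic subunit of prolyl 4-hydroxylase, rose from 263 to 552 FPM in NRK-52E cells (log2 fold change 1.07 ± 0.083, adjusted p = 1.3e-10, edgeR's quasi-likelihood test) and was 300 and 320 FPM in NRK-49F cells. Eprs, which loads glutamate and proline on their tRNAs, rose from 364 to 917 FPM in NRK-52E cells (1.33 ± 0.086, adjusted p = 5.2e-12, edgeR's quasi-likelihood test). Among fibroblasts its value was 0.22 ± 0.088 (adjusted p = 0.0672, edgeR's quasi-likelihood test), and 0.30 without A051 (adjusted p = 0.0066, edgeR's quasi-likelihood test). P3h1, a prolyl 3-hydroxylase, rose by 0.74 and P3h4, a non-catalytic member of that family, fell by 0.75 on the log2 scale in NRK-52E cells. For the fibroblasts the call of P3h1 (0.30) was lost on leaving out any of 9 single samples.

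Of the 10 collagen chains, 1 rose and 8 fell in NRK-52E cells, where 24.7% and 36.6% of all tested genes did, and 0 rose and 3 fell in NRK-49F cells, where 14.5% and 14.4% did (edgeR's quasi-likelihood test). The number that fell in NRK-52E cells was 7 or 8 with any sample left out, 4 with the line fitted alone, 5 within sample group 1 and 4 within sample group 3. For the fibroblasts, 1 rose and 6 fell with the line fitted alone, 1 rose and 5 fell within sample group 6, and 1 fell within sample group 4. Col3a1 fell in both lines, from 6149 to 2402 FPM in NRK-52E cells (log2 fold change -1.36 ± 0.16) and from 1212 to 433 FPM in NRK-49F cells (-1.49 ± 0.17). Col5a1 and Col5a2 fell by 0.95 and 0.73 (log2) among the fibroblasts. Within sample group 4 alone they were at -1.02 and -0.68 and did not pass. In NRK-52E cells Col5a1 fell by 0.51, and within sample group 3 alone it was at -0.37 and did not pass. Col5a2 (-0.38 in NRK-52E cells) no longer passed with each line fitted alone and was at 0.03 within sample group 1. Among the chains that fell in NRK-52E cells, the FPM of Col3a1 alone did not overlap between the pH values. Those of Col5a1, Col5a2 and all others that fell there did overlap. The chain that rose in NRK-52E cells, Col6a3, had 0.132 FPM at pH 7.4, with 0.448 FPM in A021 and at most 0.109 FPM in the others, and 1.84 FPM at pH 6.0.

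Of 11 genes of proline release, transport and hydroxyproline breakdown, 4 rose and 3 fell in NRK-52E cells (24.7% and 36.6% of all tested genes), and 2 rose and 2 fell in NRK-49F cells (14.5% and 14.4%). Within sample group 3 alone 5 rose and 0 fell, where 3901 and 4255 of 13444 tested genes did. Xpnpep1, an aminopeptidase that cleaves before proline, rose in both lines, by 0.69 ± 0.099 in NRK-52E and 0.34 ± 0.10 in NRK-49F cells on the log2 scale. Fitted within a sample group of NRK-49F cells alone, Xpnpep1 did not pass in sample group 4 (0.43) or in sample group 6 (0.24). Dpp7, a lysosomal dipeptidyl peptidase, rose from 14.0 to 22.9 FPM in NRK-52E cells and fell from 145 to 99.4 FPM in NRK-49F cells. The difference passed at 1.25. Within sample group 4 of NRK-49F cells alone, Dpp7 was at -0.49 and did not pass. Prep, a prolyl oligopeptidase, fell by 0.41 on the log2 scale in NRK-52E cells and was at -0.19 in NRK-49F cells. Within sample group 3 of NRK-52E cells alone, Prep was at -0.23 and did not pass. Hoga1, an enzyme of hydroxyproline breakdown, was at -0.12 in NRK-52E cells and at 0.37 in NRK-49F cells, where its call was lost on leaving out any of 7 single samples. Slc6a20, a carrier of proline in kidney epithelium, was named after its values were seen. It had 0 to 3 counts per sample in NRK-52E cells at pH 7.4 and 24 to 42 at pH 6.0 (1.22 to 1.97 FPM), and 0 to 4 counts in NRK-49F cells.

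Of 6 tested regulators known to act on genes of these enzymes, 4 rose and 1 fell in NRK-52E cells (24.7% and 36.6% of all tested genes), and 2 rose and 0 fell in NRK-49F cells (14.5% and 14.4%, edgeR's quasi-likelihood test). Atf4, the activator of amino acid synthesis genes in the integrated stress response, rose from 688 to 1146 FPM in NRK-52E cells (log2 fold change 0.74 ± 0.11, adjusted p = 4.3e-06, edgeR's quasi-likelihood test). In NRK-49F cells it was 277 and 339 FPM, or 0.30 ± 0.12 (adjusted p = 0.0594, edgeR's quasi-likelihood test), and passed there with DESeq2 and without A038, A043 or A056. Ddit3 and Trib3, known targets of ATF4, rose in both lines. On the log2 scale, Ddit3 rose by 1.33 and 0.82 and Trib3 by 2.58 and 1.72 in NRK-52E and NRK-49F cells. The FPM of Ddit3 overlapped between the pH values in NRK-49F cells. Within sample group 4 alone, Ddit3 was at 0.77 and did not pass. Myc, an activator of synthesis genes, fell from 18.5 to 9.71 FPM in NRK-52E cells and was 22.8 and 26.3 FPM in NRK-49F cells. Foxo3 was at -0.21 and -0.60 in NRK-52E and NRK-49F cells (adjusted p = 0.452 and 0.0722 by edgeR's quasi-likelihood test). It passed in NRK-49F cells without A035 or A056, at -0.60 and -0.74, and in sample group 1 of NRK-52E cells alone, at -0.62. Pparg and Ppargc1a, at 0.0640 and 0.110 FPM on average, were not tested.

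For each enzyme gene, the genes with the most similar course were sought among 10237 genes by the root mean square difference of log2(FPM + 0.5), each gene centred on its own mean over the 23 samples. Those nearest to Pycr1 were Snrpa1 (0.230), Casp4 (0.268) and Gadd45a (0.271), where the median over all genes was 1.16. Nearest to Aldh18a1 were Fbxw8, Ggcx and Septin2 (0.109 to 0.119, median 0.518), and nearest to Oat were Tmem30a, Copb1 and Gnl3 (0.132 to 0.148, median 0.691). Prodh was followed most closely by Tmem132a, Frmd4b and Sulf1 (0.241 to 0.267, median 0.778), and Aldh4a1 by Gabpb1, Zdhhc9 and Rnf19a (0.160 to 0.177, median 0.624). None of these, found over all samples, was a gene of the list around the enzymes, whereas within NRK-52E cells alone Slc25a13 of that list was the third nearest to Prodh (0.221). Within NRK-52E cells alone (12 samples), Snrpa1 was still among the 3 nearest to Pycr1, after Insig1 and Osgin1, whereas within NRK-49F cells alone (11 samples) Luc7l, Cry1 and Slc2a1 were nearest.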

How the data were processed

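The deposited table holds raw counts per Ensembl gene, which the authors made from paired-end poly(A) reads with HISAT2 (version 2.1.0 per the submitters' notes) and featureCounts, counting multi-mapping reads on exons, without normalization. The strand setting is not given in the sources used here, so overlapping antisense genes cannot be told apart. The labels name the build rn6 and the study's methods rn7, and the bicarbonate of the growth medium also differs between them. The labels gave the grouping of samples into line and pH, 23 columns were used and 13 columns without a matching label were not. The human samples were not analysed here.

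In R 4.3.3, genes were filtered by filterByExpr (minimum count 10, minimum total 15), scaled by TMM and tested with edgeR 4.0.16 (quasi-likelihood test, Benjamini-Hochberg over 14777 genes, threshold 0.05) in 1 model with 4 conditions. The SE is the absolute log2 fold change divided by the square root of F. At the depth of 16412564 to 34250535 counts, 3 counts amounted to 0.0839 FPM in A021 and 0.203 FPM in A041. No floor was applied to the levels. The steps were tested on simulated data. Alternatives used RLE or upper quartile scaling, DESeq2 1.42.0, no filter beyond 1 count, each line alone, the sample group as a block or alone, thinned libraries and each sample left out. Figures were drawn with matplotlib 3.10.9.

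The enzymes and all lists were chosen with earlier results of these data known. Named are the enzymes, paralogs, listed regulators and, from every other group, up to 4 genes with the largest change past the threshold in either line, a mean of at least 1 FPM and no overlap between the pH values, plus the 3 genes most alike to each enzyme (mean of at least 5 FPM). Symbols were matched by name or RefSeq synonym, and Pepd, Krt19 and Ocln were not found. Some items among these genes entered the fits and counts and are not reported here.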

Additional observations from a re-analysis of the deposited data

Results flagged for a closer look

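In 10 of 124 groups of 5 or 6 samples a single sample stood apart from the others by Dixon's criterion, which chance meets in about 1 group in 20. Among the enzymes these were Pycr1 in A051 (36.6 FPM, the other NRK-49F controls 26.5 to 29.0), Oat in A021 (285 FPM, the other NRK-52E controls 255 to 266) and Prodh in A039 (4.58 FPM, the other NRK-49F controls 2.30 to 3.07). In the NRK-52E control A035, Pycr3 (525 FPM) was above and Foxo3 (12.1 FPM) below the others, and in the NRK-52E control A021 Col6a3 was at 0.448 FPM. In the acidic NRK-49F sample A042, P3h1 was at 182 FPM and Atf4 at 458 FPM, where the others had at most 136 and 335 FPM. In the NRK-49F controls, Slc25a13 was at 26.2 FPM in A041 and Eprs at 156 FPM in A051.

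For 23 of 31 genes, the change at pH 6.0 differed between the lines by the test of the difference itself (edgeR's quasi-likelihood test), against 41.4% of all tested genes. The 31 genes include the enzymes and genes named for their large changes, so this number can be raised by how they were chosen. The differences of log2 fold changes, NRK-52E minus NRK-49F, were 1.79 for Pycr1, 0.82 for Aldh18a1, 1.07 for Oat and 0.81 for Aldh4a1, which are descriptions since these genes were chosen with their values known. Of the others, the change was more positive in NRK-52E cells for Col6a3 (3.18), Srm (1.69), Arg2 (1.63), Dpp7 (1.25), Eprs (1.12), Slc1a5 (1.11), P4ha1 (0.98), Trib3 (0.86), Slc25a22 (0.62), Atf4 (0.44), P3h1 (0.44) and Xpnpep1 (0.36). It was more negative for Arg1 (-2.09), Smox (-1.41), Glul (-1.22), Slc25a13 (-1.20), Myc (-1.14), P3h4 (-0.55) and Hoga1 (-0.49). The differences of Atf4, Hoga1, P3h1 and Xpnpep1 were lost on leaving out any of 7, 10, 1 and 16 single samples.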

How the results depend on the processing

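No direction of the 5 enzyme genes past the threshold turned under any alternative. Fitted within a sample group alone, the log2 fold changes in NRK-52E cells were -0.96 (sample group 1) and -2.23 (3) for Prodh, -0.18 (1) and 0.52 (3) for Aldh4a1 and 0.68 (3) for Aldh18a1, and in NRK-49F cells 1.27 (4) and 0.48 (6) for Pycr1 and -0.16 (4) and -0.48 (6) for Aldh18a1. Aldh4a1 of NRK-52E cells passed the threshold in sample group 3, where 3901 of 13444 tested genes were higher and 4255 lower. In NRK-49F cells Aldh18a1 and Aldh4a1 did not pass in sample group 4 and Prodh in neither, with fewer samples in each fit. Of 13812 tested genes, 653 were higher and 548 lower in sample group 4, and 1088 and 1117 in sample group 6. Nothing is read from these calls, since the enzyme genes were chosen with their values known. Col5a2 in NRK-52E cells was at 0.027 in sample group 1. Of the genes around the enzymes in NRK-49F cells, 17 fell with each cell line fitted alone, 3 rose in sample group 4 and 8 in sample group 6, and 4 fell in sample group 4. With each sample left out in turn, 7 to 14 rose and 7 to 12 fell in NRK-49F cells. The numbers of all tested genes that passed also moved between these fits. The causes were not tested. The sample groups could not be compared for the difference between the lines, as each holds a single line. No paired analysis was possible because replicate codes are not shared between the pH values. Depth limits mainly Prodh, at 7 to 131 counts.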
